A study of Homo sapiens with 12 samples.

Results

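The response of HEK293T cells to 9 h of Wnt3A was measured by comparing 2 of the 12 arrays of the series. HEK293T is a human embryonic kidney line, carrying the SV40 large T antigen, in which the Wnt pathway is intact and not activated by mutation. Both arrays held RNA from cells transfected for 72 h with 15 nM of a non-targeting control siRNA, and then kept for 9 h in Wnt3A conditioned medium or in control medium. All values are therefore from cells that carry the control siRNA. Each array was hybridized with the cell RNA in Cy3 and universal human reference RNA, a common standard, in Cy5. The value of a probe on an array is the log2 ratio of sample to reference, and its change is the ratio on the Wnt3A array minus that on the control medium array. Of 43376 non-control features, 29012 (66.9%) were compared, since 251 were marked as outliers and 14113 did not exceed 2-fold the local background in either channel on both arrays. These are spots of 27053 probes and include 13738 genes with a symbol.

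Each condition had 1 array. No test was made, no p-value is given, and a difference has no replicate check. The arrays lay on different slides with different scan times, so that slide and medium cannot be told apart. The error given with a change is that of the scanner program's error model, combined over both arrays, and it leaves out the spread between cultures. Its median was 0.31 on the log2 scale. For 240 probes with at least 5 usable spots on the arrays, the change differed between spots by a median SD of 0.05. The sample channel was well above background for 74.1% of features on the control medium array and 77.2% on the Wnt3A array, and no spot was saturated. Of 20 probes of HEK293T marker genes, such as the neurofilament gene NEFM and the keratin genes KRT8 and KRT18, 19 were well above background on each array.

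Wnt proteins bind Frizzled receptors with the co-receptors LRP5 and LRP6. In their absence, a complex of AXIN, APC, and the kinases CK1 and GSK3 marks β-catenin for destruction. Once the complex is inhibited, β-catenin enters the nucleus and joins TCF/LEF factors on their target genes, several of which, such as AXIN2, DKK1, and NKD1, encode inhibitors that act back on the pathway. The comparison asks which transcripts differ after Wnt3A is given to cells in which mutation has not activated the pathway.

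The sequences upstream of a pair of target genes that were higher after Wnt3A are shown because TCF/LEF factors bind the letters ATCAAAG, or CTTTGAT on the opposite strand. They are the 250 bases before the gene start in RefSeq on GRCh38.p14, plus strand, at chr2:170715087-170715336 for SP5 and chr10:52314031-52314280 for DKK1, with a match in capitals.
SP5: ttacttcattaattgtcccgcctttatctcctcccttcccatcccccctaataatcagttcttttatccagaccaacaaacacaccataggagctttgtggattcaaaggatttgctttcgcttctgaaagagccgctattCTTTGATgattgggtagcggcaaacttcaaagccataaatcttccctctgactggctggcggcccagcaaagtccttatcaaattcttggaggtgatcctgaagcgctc
DKK1: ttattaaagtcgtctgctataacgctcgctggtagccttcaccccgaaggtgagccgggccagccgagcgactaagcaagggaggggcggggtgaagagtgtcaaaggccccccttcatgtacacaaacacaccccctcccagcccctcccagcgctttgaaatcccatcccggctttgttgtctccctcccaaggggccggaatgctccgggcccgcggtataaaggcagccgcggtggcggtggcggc
The SP5 sequence held 1 match, on the minus strand, 109 to 103 bases before the start, and the DKK1 sequence held none. RefSeq sequences were matched for 25 of the 40 genes of the target list, with 41 start sites, and 1 of the 41 held a match (2.44%). Among all 35116 promoters the share was 2.26%. A match of letters is not evidence of binding, and the array data do not bear on binding.

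Of the features compared, 1172 were more than 1.5-fold higher after Wnt3A (4.04%) and 777 were more than 1.5-fold lower (2.68%). With the spots of a probe averaged, 1020 probes were higher (3.77%) and 750 were lower (2.77%). The median change of all probes was -0.01. Dim probes gave many of these calls. In the range of 4 to 6 on the log2 scale of sample signal, 28.3% of probes were higher and 9.08% lower, against 0.55% and 0.18% at 12 or above. Of the 25933 probes well above background in the sample channel on both arrays, 634 were higher (2.44%) and 562 were lower (2.17%). The features nearest the limit had changes of 0.5851 inside and 0.5848 outside it, so that no gap separates called from uncalled features. Higher features made up 60.1% of the calls. The share was 81.1% with the sample channel alone, 79.1% after normexp background correction with outlying local backgrounds set to the array median, and 30.8% after the same correction with the local backgrounds as deposited. With backgrounds as deposited, the median corrected sample signal was 816.6 on the control medium array and 107.2 on the Wnt3A array. With outlying backgrounds replaced, it was 121.4 and 107. The setting with backgrounds as deposited thus put the 2 arrays on unlike scales.

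**Figure D1:**
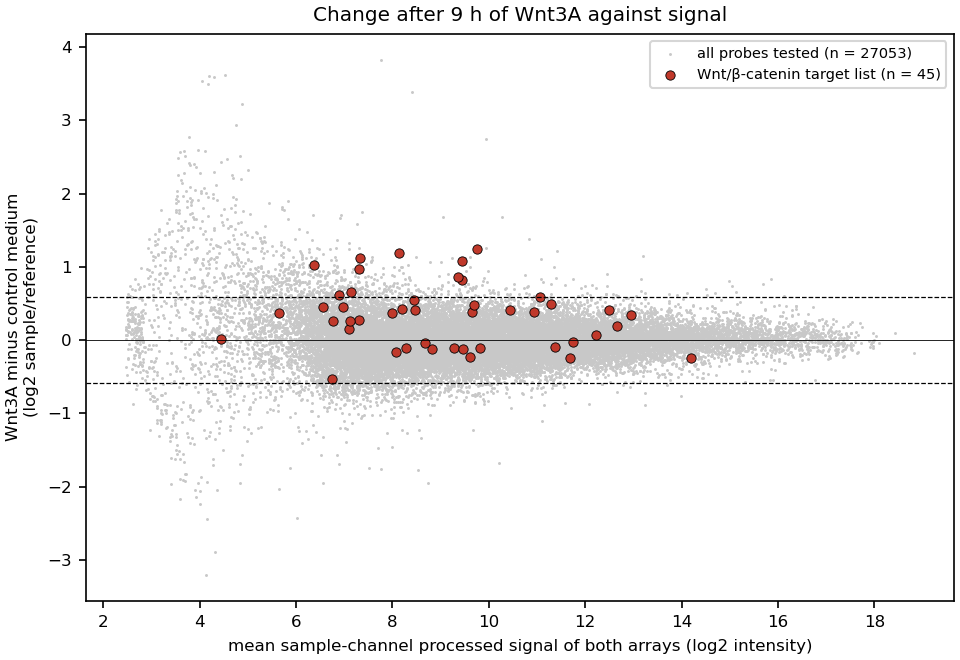
Change after 9 h of Wnt3A (log2 sample/reference, Wnt3A minus control medium) against mean sample signal (log2 intensity), 1 point per probe and 1 array per condition, with the 1.5-fold limits dashed. The 45 probes of the Wnt target list are red. Points past the limits are densest at low signal, and 11 of the red points lie above the upper limit and 0 below the lower.

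Of the known targets of the pathway, 8 of 34 genes had a probe more than 1.5-fold higher after Wnt3A. Of 45 probes for 34 of the 40 genes on the list of Wnt/β-catenin targets, 32 had a change above 0 and 13 below. The median change was 0.37, against -0.01 for all probes. More than 1.5-fold increases were seen for 11 probes (24.4%) of 8 genes, AXIN2, CCND1, DKK1, EPHB3, NKD1, SP5, TCF7, and ZCCHC12, against 3.77% of all probes, and 0 probes were more than 1.5-fold lower. AXIN2, a scaffold of the destruction complex, went from -0.62 in control medium to 0.46 after Wnt3A, a change of 1.08 ± 0.30 (2.11-fold). DKK1, a secreted antagonist that binds LRP co-receptors, went from -4.34 to -3.14, a change of 1.19 ± 0.58 (2.29-fold). DKK1 lay far below the reference level and AXIN2 near it, and the sample channel alone was 1.36 and 0.72 higher for them. NKD1, an inhibitor that binds Dishevelled, went from -1.12 to -0.46 (0.66 ± 0.32).

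Transcription factors among the targets were also higher. SP5, a zinc finger factor whose upstream sequence is shown above, went from -6.30 to -5.33 with 1 probe and from -6.95 to -5.93 with another, changes of 0.97 ± 0.84 and 1.02 ± 0.92. A further SP5 probe, at 0.08 and -0.08, did not differ by more than its error. TCF7, which encodes a TCF factor, went from -2.11 to -1.29, a change of 0.82 ± 0.37 with an SD of 0.05 between 10 spots. Its sample channel changed by 0.42 and its reference channel by -0.40. LEF1, another TCF/LEF gene, changed by 0.34 ± 0.32 and 0.15 ± 0.32 with its 2 probes and stayed inside the limit. CCND1, which encodes the cell cycle regulator cyclin D1, was higher with all 3 probes, from -2.76 to -1.51, from -1.38 to -0.26, and from -2.40 to -1.54. The changes were 1.24 ± 0.41, 1.12 ± 0.32, and 0.86 ± 0.39, and that of 1.24 had an SD of 0.08 between 10 spots. Its reference channel was 0.60 lower on the Wnt3A array for the first of these probes and within 0.17 for the others. EPHB3, an ephrin receptor of intestinal crypts, went from -1.08 to -0.46 (0.62 ± 0.32). ZCCHC12, one of the targets that the study followed in HEK293T cells, went from 5.15 to 5.74, a change of 0.59 ± 0.79 that is within its error. Its sample channel was 1.61 higher and its reference, not above 2-fold the local background, 1.02 higher, and the change was 1.72 with the sample channel alone and 1.11 after normexp with outlying backgrounds replaced.

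Some familiar targets were not past the limit. MYC, a growth regulator with a strong signal, went from -0.64 to -0.88. Its change of -0.25 ± 0.31 is within its error, with an SD of 0.03 between 10 spots. The signal inhibitors RNF43 and NOTUM changed by 0.38 ± 0.33 and 0.41 ± 0.35, whereas the RNF43 relative ZNRF3 changed by -0.10 and -0.03. MSX1 and MSX2, homeobox factors, lay between 0.26 and 0.55 with 4 probes. The lowest change of the list, -0.53 ± 0.41, came from 1 probe for KREMEN1, a DKK receptor, and the other KREMEN1 probe gave 0.07. For the lower probe, the sample channel changed by 0.05 and the reference by 0.58. The median of the list was 0.46 with the sample channel alone, where the median of all features was 0.09. It was -0.13 after normexp correction with local backgrounds as deposited, where all features had a median of -0.16 and 9 of the 11 called probes turned direction, and 0.33 once outlying backgrounds were set to the array median, where 0 did. With only the 5 spots of the sample channel and 9 of the reference whose local backgrounds exceeded 1000 on the control medium array set to the median, a setting added once the data were known, the median was 0.24 and 0 of the 11 turned.

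**Figure D2:**
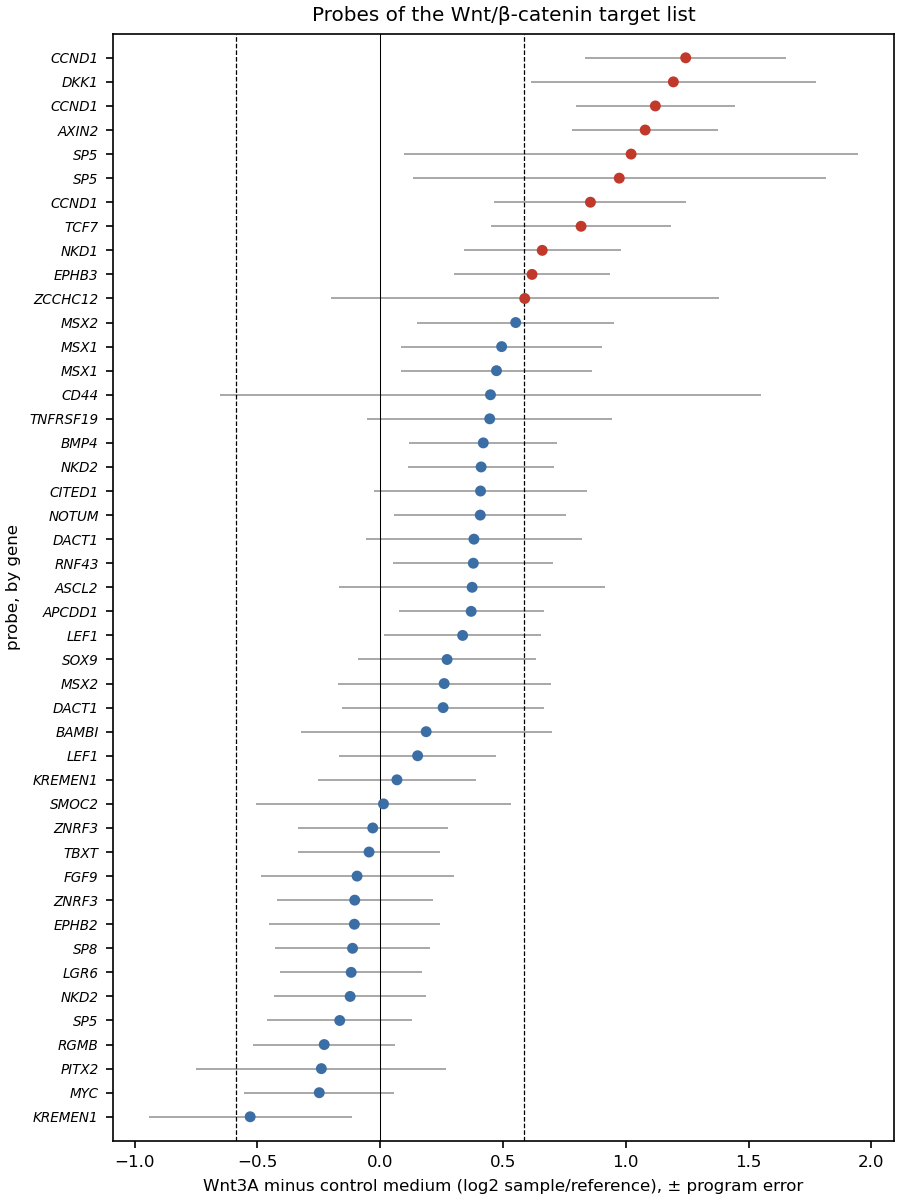
Change after Wnt3A (log2 sample/reference) for each of the 45 probes of the Wnt/β-catenin target list, with bars for the scanner program's error and dashed lines at 1.5-fold. The 11 red points, from 0.59 for ZCCHC12 to 1.24 for CCND1, lie past the limit, and the lowest point is KREMEN1 at -0.53.

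Among Wnt ligands, 4 of 13 probes (30.8%) were more than 1.5-fold higher and 0 were lower, against 3.77% and 2.77% of all probes, with a median of 0.32. WNT11, a ligand best known for β-catenin-independent signaling, went from 0.79 to 2.50 and from 1.51 to 2.64 with its 2 probes, changes of 1.71 ± 0.41 and 1.12 ± 0.41. WNT10A went from -1.27 to -0.41 (0.86 ± 0.32). WNT6 gave 0.94 ± 0.30 with 1 probe and -0.01 with the other, so that its probes disagreed. WNT5A and WNT3, at -0.50 and -0.44, were the lowest. The ligand in the medium is a protein, and the probe for WNT3A itself changed by 0.32.

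Receptors and the intracellular relay had medians a little below the -0.01 of all probes. Of 24 probes for receptors and co-receptors, 2 were higher (8.33%) and 0 lower, with a median of -0.14. Of all probes, 3.77% were higher and 2.77% lower. The WNT5A receptor genes ROR1 and ROR2 were the higher ones, at 0.73 ± 0.31 and 0.61 ± 0.30, and their other probes gave 0.47 and -0.35. LRP6 changed by -0.50 and -0.26. The destruction complex and signal relay had 0 of 40 probes past the limit in either direction, with a range of -0.41 to 0.36 and a median of -0.04. CTNNB1, which encodes β-catenin itself, changed by 0.27 and 0.36 with its 2 probes. The sample channel changed by -0.05 and -0.04 for these, and the reference by -0.32 and -0.40. Of 35 probes for TCF factors and β-catenin cofactors, 0 were higher and 3 were lower (8.57%). The lower ones were the corepressor subunit TBL1XR1 at -0.64, MLLT10 at -0.60, and TCF7L1, mostly a repressor, at -0.59. The other 4 TBL1XR1 probes lay between -0.49 and -0.02, and the other MLLT10 probe at -0.32. The other siRNA targets of the series, DOT1L, SMARCA4 (BRG1), and EP300 (p300), stayed inside the limit, at 0.03 to 0.07, -0.02 to 0.38, and -0.36 to -0.23. Secreted modulators had 1 of 14 probes higher and 1 lower (7.14% each), SFRP2 and FRZB, both not well above background on either array.

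Many genes that growth factors induce rapidly were higher after Wnt3A. Of 47 probes of immediate early genes and feedback regulators of ERK, a kinase downstream of growth factor receptors, 16 were more than 1.5-fold higher (34.0%) against 3.77% of all probes, 0 were lower, and the median was 0.26. That median was -0.35 after normexp correction with local backgrounds as deposited. In that setting the median corrected sample signal was 816.6 in control medium and 107.2 after Wnt3A. EGR1, a zinc finger factor that responds to growth factors and serum, went from -4.63 to -1.89, a change of 2.74 ± 0.55 (6.68-fold). It was the third largest increase among probes above background that have a symbol. EGR2, a relative, went from 0.02 to 1.11 (1.09 ± 0.32). The EGR3 probe was not well above background in control medium. Its signal was at least 2.51-fold higher after Wnt3A, a bound on the sample channel that is open to dye bias. This bound, like those given below for other probes, takes the lowest signal flagged well above background as the floor. A probe not above background could lie higher than that floor, so the bounds are not strict. FOS, an AP-1 subunit, went from -3.82 to -2.70 (1.12 ± 0.52), and JUNB was higher with both probes, at 0.84 and 0.67. JUN, by contrast, was at -0.54.

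The ERK phosphatase gene DUSP6 went from -5.58 to -4.53 (1.05 ± 0.74), and SPRY4, an inhibitor of receptor kinase signaling, went from -3.22 to -2.18. DUSP5 and DUSP4 changed by 0.88 and 0.68. ETV4 and ETV5, factors of the PEA3 group that FGF and ERK signaling induce, were among the 10 largest increases of probes above background that have a symbol. ETV4 went from -2.37 to -0.61 and from -2.15 to -0.57 with its 2 probes, changes of 1.75 ± 0.37 and 1.58 ± 0.36. ETV5 changed by 1.78 ± 0.47 and 1.38 ± 0.39. The third PEA3 gene, ETV1, and 4 further ERK feedback genes were looked up after these values were seen. ETV1 was higher with both probes, at 1.35 and 0.62, and SPRED2 at 0.96, whereas SPRED1, SPRY1, and IL17RD were between 0.10 and 0.23. FGF ligands and receptors had 0 of 18 probes higher and 1 lower (5.56%), against 3.77% and 2.77% of all probes.

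In the stress list, the probes past the limit were for cytosolic HSP70 genes. All 6 of 35 probes past the limit in that list (17.1%, against 3.77% of all probes) were for HSPA1A and HSPA8, 2 HSP70 chaperone genes, and the median was 0.28. HSPA1A went from -1.55 to 0.13 and from -1.45 to -0.07, changes of 1.68 ± 0.32 and 1.38 ± 0.32. A further HSPA1A probe gave 0.63. HSPA1B is nearly identical in sequence, and the probes may not separate the genes. HSPA8 went from -1.56 to -0.73 with 1 probe (0.83 ± 0.33), and 2 more of its probes were past the limit. The reference channel of HSPA8 was also higher on the Wnt3A array, by 0.51 for this probe and by up to 1.34 for the others. DNAJB1 was at 0.54, XBP1 at 0.48 and 0.17 with its 2 probes, TRIB3 at 0.47 and 0.32, and HSP90B1, a chaperone of the endoplasmic reticulum, at -0.50 and 0.17.

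For the remaining signaling and growth lists, the shares of all probes to compare with are 3.77% higher and 2.77% lower. Notch genes, cholesterol synthesis and uptake, and ribosome biogenesis had 0 called probes of 29, 41, and 39, with medians of 0.07, 0.05, and 0.06. Of 43 cell division probes, only 1, for CDKN1B, was past the limit (2.33%). CDKN1B, which encodes the cyclin-dependent kinase inhibitor p27, went from -0.49 to -1.22, a change of -0.73 ± 0.31 with an SD of 0.06 between 9 spots. Its other probe gave -0.54. Cyclin D genes differed among themselves, since CCND2 lay between 0.11 and 0.16 and CCND3 at 0.41 and 0.51, below CCND1. In the BMP and TGF-β list, 2 of 37 probes were higher (5.41%) and 4 lower (10.8%), against 3.77% and 2.77% of all probes. The ligand gene TGFB1 was at 0.87 ± 0.30 with an SD of 0.09 between 10 spots. BMPR1B, a type I BMP receptor, went from 3.43 to 2.16 and from 4.50 to 3.43, changes of -1.27 ± 0.48 and -1.07 ± 0.65. TGFBR1 and SMAD5 were at -0.66 and -0.63. Hypoxia and glycolysis had 2 of 40 probes higher (5%), NDRG1 at 0.93 and SLC2A3, which was not well above background, at 0.85. The other NDRG1 probe gave 0.51, and the reference of the first was 1.46 higher on the Wnt3A array.

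**Figure D3:**
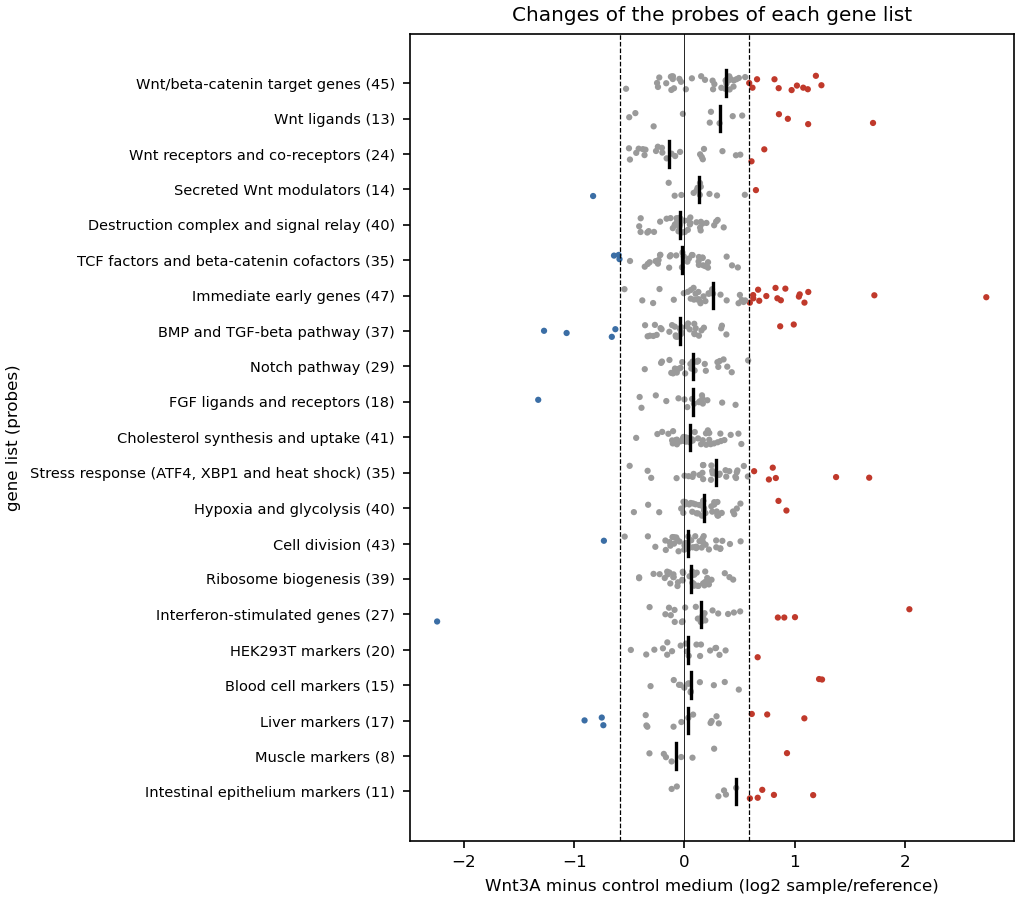
Change after Wnt3A (log2 sample/reference) of every probe tested in the 21 gene lists, 1 point per probe, with the median of each list as a black bar and dashed lines at 1.5-fold. Red and blue points are past the limits. The Wnt target and immediate early lists hold 11 and 16 red points and 0 blue ones.

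Some markers of other cell types were past the limit. Of 11 probes of intestinal epithelium markers, 5 were higher and 0 lower, against 3.77% and 2.77% of all probes, with a median of 0.47. The median turned to -1.05 after normexp correction with local backgrounds as deposited, the setting that put the 2 arrays on unlike scales. The 5 higher probes belong to TFF3, EPCAM, and VIL1, and 3 of them were well above background on both arrays. TFF3 and EPCAM lay far below the reference, at -3.61 or less in control medium where well above background, and the VIL1 probe past the limit was not above background on either array. Over the 19 probes of the list on the array, 12 were well above background in control medium and 13 after Wnt3A. Of the 13 genes of these probes, 10 were above background on each array. CDH17, CEACAM5, and CEACAM6 were above it on neither, and the summed sample signal was 2543 and 3417. Interferon-stimulated genes had 4 of 27 probes higher (14.8%) and 1 lower (3.70%), against 3.77% and 2.77% of all probes, and 3 of the higher ones were above background. MX2 was at 1.00 and 0.91 and IFI44L at 0.85, while OAS1, not above background, was at 2.04. IFIT3 was well above background in control medium only, and its signal there was at least 1.93-fold higher, but its change turned to 0.14 after normexp with outlying backgrounds replaced. Among blood cell markers, 2 of 15 probes were higher (13.3%), CD2 at 1.22 ± 0.41 and PTPRC. The PTPRC probe was not above background in control medium and was at least 1.41-fold higher after Wnt3A. Liver markers had 3 probes higher and 3 lower of 17 (17.6% each), and muscle markers 1 higher of 8 (12.5%), MB, not above background. Among probes well above background on both arrays, 1 of 12 blood probes was higher and 0 lower. For liver, 2 of 13 were higher and 2 lower, and for muscle 0 of 7 were past the limit. Of all such probes, 2.44% were higher and 2.17% lower. The part of these marker genes in the other results was not tested.

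Among probes with a symbol, the largest increases with both arrays above background in the sample channel were ACTL8, an actin-like gene, and C1QTNF5, a C1q family gene. ACTL8 went from -3.05 to 0.78, a change of 3.83 ± 0.41 (14.2-fold). C1QTNF5 went from -0.64 to 2.75, a change of 3.39 ± 0.39. EGR1 followed, then HKDC1, a hexokinase relative, at 1.90 ± 0.43, with a further probe that was not above background in control medium. The list of 10 was completed by GBP2, an interferon-inducible GTPase, at 1.79, ETV5, ETV4, WNT11, IRAG2 at 1.70, and LMO2, a LIM-domain factor of blood development. LMO2 was at 1.68 ± 0.41 with an SD of 0.06 between 7 spots. Without regard to background, PLBD1 and TNFRSF17 also showed ratios over 3 log2 units higher. Neither was above background in control medium, and their signals were at least 2.14-fold and 1.80-fold higher.

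The decreases rested on the reference channel more often than the increases did. Both arrays held the same reference RNA, so a difference between their Cy5 signals is not a difference between the cells. Of the 47 probes above background in the sample channel and more than 2-fold lower, 25 (53.2%) had a larger change of the reference than of the sample, with medians of 0.63 and -0.52. Among the 99 more than 2-fold higher, 4 did (4.04%), with medians of -0.06 and 1.13. Over all 25933 probes above background in the sample channel, the reference change was the larger in 41.1%. The reference was itself well above background on both arrays for 34 of the 47 and 97 of the 99, and among these 16 and 2 had the larger change in the reference. NOL4, at the head of the decreases, went from 6.29 to 4.34, a change of -1.96 of which the sample channel held -0.44 and the reference 1.52. Its other probe gave -0.24. The reference of NOL4, KIF6, and DYNC2H1 was not well above background on either array, and that of DDX50 not in control medium, so that their ratios are uncertain. SERTM1 was 0.79 higher in the sample channel, against 2.55 in the reference. CBARP, KIF6, DDX50, DYNC2H1, and FGF7 likewise had reference changes of 1.16 to 2.95. Where a further probe existed, it gave -0.29 for DDX50, 0.00 and -0.06 for DYNC2H1, and -0.39 for FGF7.

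Other decreases were seen in the sample channel as well. PLXNA4, a semaphorin receptor, went from -0.77 to -2.17, a change of -1.40 ± 0.38 with -1.33 in the sample and 0.08 in the reference. PRKG1, a cGMP-dependent kinase, was at -1.34, of which -0.91 was in the sample. BMPR1B was at -0.64 and -0.88 in the sample and at 0.63 and 0.19 in the reference with its 2 probes, and the reference of the latter was not well above background. TRPA1, an ion channel, was above background in control medium only, and its change was -2.43 (5.39-fold). The bound put its sample signal at least 9.95-fold lower, and its reference was 1.12 lower. The sample signal of MLKL was at least 2.31-fold lower, but its change turned to 0.23 after normexp with outlying backgrounds replaced, and its other probe gave 0.32. PLA2G12B and FMO5, also among the largest decreases, were not above background on either array.

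**Figure D4:**
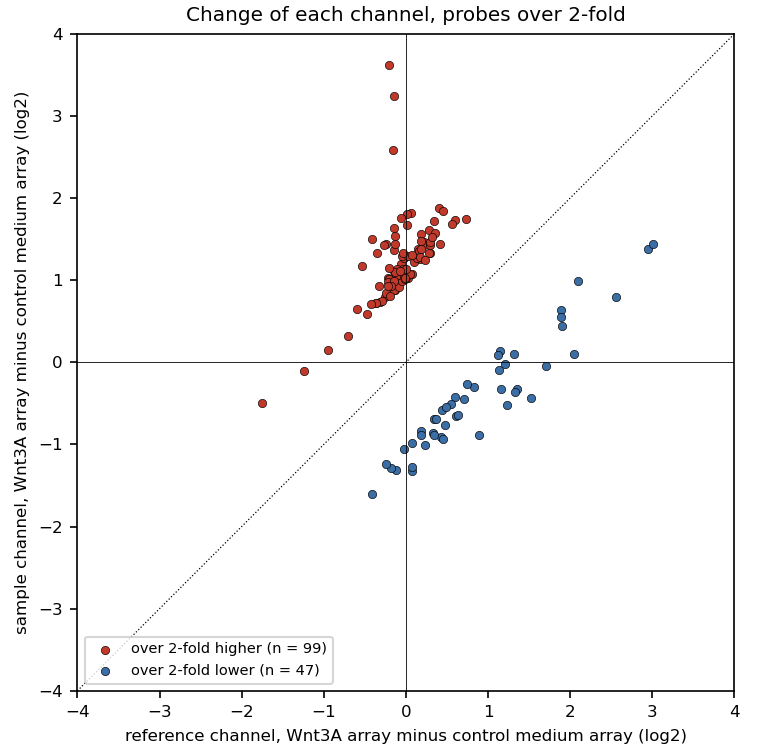
Change of the sample channel against that of the reference channel (Wnt3A array minus control medium array, log2 processed intensity) for the 99 probes over 2-fold higher (red) and the 47 over 2-fold lower (blue), all above background in the sample channel. The dotted line marks equal change. Red points cluster near 0 on the reference axis, and many blue points lie to the right of it, at increases in the reference.

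Agreement between probes gave another view of reliability. Among 4316 genes with at least 2 probes above background, 115 had a probe more than 1.5-fold higher, 17 of these had every such probe higher, and 29 had a probe with a change in the opposite direction. The 17 include ETV1, ETV4, ETV5, WNT11, CCND1, JUNB, HSPA1A, the cochaperone gene DNAJA1, and FSCN1, which encodes the actin-bundling protein fascin. Of 207 genes with a lower probe, 12 had every probe lower, among them BMPR1B, the pituitary homeobox gene HESX1, and MECOM, and 35 had a probe in the opposite direction.

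The other 4 HEK293T arrays that received Wnt3A held cells depleted of MLLT10/AF10, DOT1L, BRG1, or p300. The arrays for MLLT10/AF10 and DOT1L shared a slide with the control medium array, so that their levels can be set against it within a slide, though with another siRNA. All comparisons share the control medium array and are not independent. DKK1 was at -4.34 in control medium, at -3.14 after Wnt3A, and at -3.07, -3.00, -2.94, and -3.01 on the arrays depleted of MLLT10/AF10, DOT1L, BRG1, and p300. Control medium was the low array, and the 5 Wnt3A arrays spanned 0.20. AXIN2 was at -0.62 and 0.46, and at 0.19, 0.24, -0.34, and -0.16 in the same order, and the first SP5 probe above at -6.30 and -5.33, and at -5.32, -5.29, -5.42, and -5.35. For both, control medium gave the lowest value. Of the other targets past the limit, TCF7 was at -2.11 in control medium and at -2.31 on the BRG1-depleted array, ZCCHC12 at 5.15 and 4.56, and NKD1 at -1.12 and -1.13, so that a Wnt3A array lay below control medium.

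EGR1 was at -4.63 and -1.89, and at -3.51, -2.17, -3.97, and -3.13, so that the Wnt3A arrays spread widely above control medium. ETV4 was at -2.37 and -0.61, and at -1.06, -0.35, -2.15, and -1.18, where the BRG1-depleted array lay close to control medium. HSPA1A was at -1.55 and 0.13, and at 0.12, -0.10, -0.54, and 0.32, while a further probe was at -6.74 in control medium and -6.82 on the BRG1-depleted array. ACTL8 was at -3.05 and 0.78, and at -1.77, -2.03, -2.96, and -2.03, and C1QTNF5 was at -0.64 and 2.75, and at -0.09, -0.60, -0.51, and -0.20. For these 2 largest increases, the si-control Wnt3A array stood above the highest of the 5 others by 2.55 and 2.84. HKDC1 was at -3.09 and -1.18, and at -4.25, -3.59, -2.73, and -4.17, with 3 of the depleted arrays below control medium. CBARP was at 2.22 and 0.46, and at 0.59, 0.86, 0.53, and 1.01, where control medium was the high array, whereas SERTM1 was at 3.45 and 1.70, and at 4.96, 3.72, 5.82, and 4.35.

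**Figure D5:**
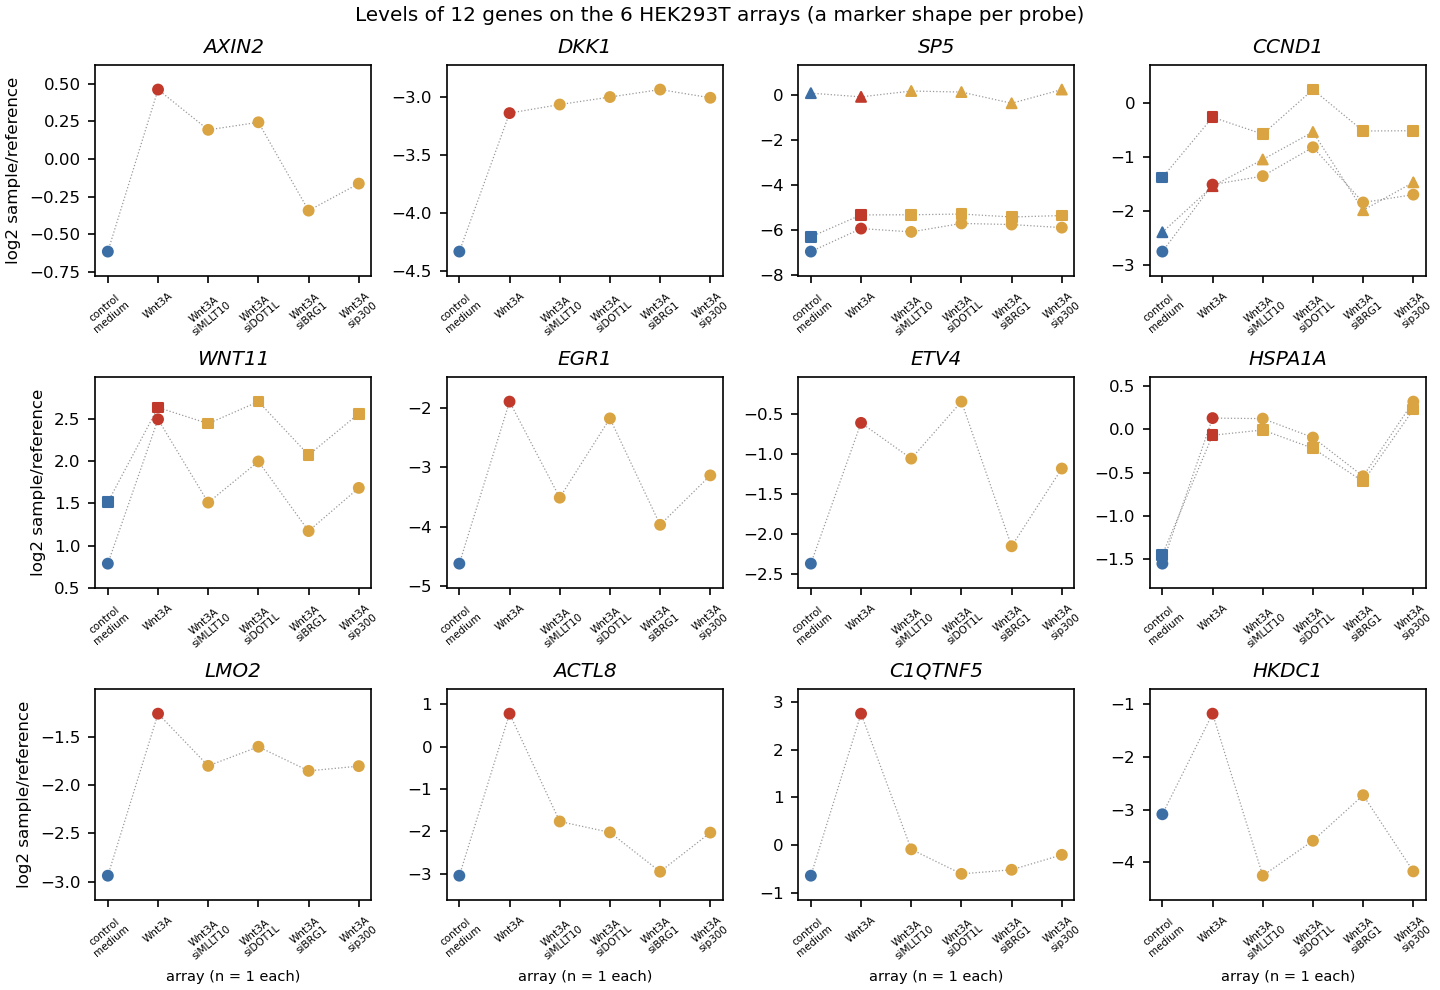
Log2 sample/reference ratio of 12 genes on the 6 HEK293T arrays (n = 1 each), control medium in blue, si-control Wnt3A in red, and Wnt3A with another siRNA in yellow, a marker shape per probe and dotted lines to join a probe's points. Control medium gave the lowest value for every probe plotted except that of HKDC1 and a further SP5 probe. Every gene plotted has a probe over 1.5-fold higher than on this same control medium array. A low value there is thus partly built into the choice of genes. ACTL8 and C1QTNF5 were highest on the si-control Wnt3A array.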

How the data were processed

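Total RNA of HEK293T cells was labeled with Cy3 and universal human reference RNA with Cy5, and both were hybridized to Agilent 4x44K Whole Human Genome arrays. The authors read the arrays with the Feature Extraction program, version 10.5.1.1 per the file headers and 8.5.1.1 per the submitters' processing notes. The deposited intensities are median, local background, and processed signals, the last corrected by the program for background and dye. The deposited log10 ratios are processed Cy5 over Cy3, with the program's error. The deposited table of values held the same log10 ratios.

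The ratios were turned to sample over reference, converted to log2, and subtracted. Control spots, outlier flags, and features under 2-fold the local background in both channels of an array were left out. Spots of a probe were averaged. Symbols were found for 27612 of 29084 features with a RefSeq accession (94.9%). Calls used 1.5-fold. Bounds for probes below background compare sample signals after Aquantile scaling in limma. The floor is the lowest signal flagged well above background on the array, so that a bound is approximate. Python 3.11.15, pandas 2.3.3, and limma 3.58.1 were used, and the ratio conversion and call rule were checked on simulated ratios. The changes put in lay far past the limit, so that the check bears on sign and unit only. Precision is limited by 1 array per condition, so no test was made.

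The members and gene lists were chosen with earlier results of these data known, from general knowledge of the pathways. The genes named, all from probes with a symbol, are all Wnt targets measured and the 10 largest increases and decreases above background. To these come up to 4 called probes above background per other list, the siRNA targets with CTNNB1, and the 5 largest changes of all in each direction. Other probes of these genes, list members outside this rule, ETV1, the SPRED and SPRY1 genes, IL17RD, and genes named for agreement between probes were added after their values were seen. Some genes that this rule selects are not reported here. Alternatives were normexp with loess (offset 50), the same with outlying backgrounds replaced or, added after seeing the data, only those above 1000, the deposited table, the sample channel scaled to its 75th percentile, 4 other filters, median and lowess centring, and a 2-fold limit.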

Additional observations from a re-analysis of the deposited data

How the results depend on the processing

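No paired analysis was possible because each condition had 1 array. Read depth does not apply to arrays, so signal over background is given instead. The median sample signal was 3.24 times the local background on the control medium array and 3.15 times on the Wnt3A array. The deposited table held the same ratios and could not differ, and median centring removed only -0.0081. Keeping outlier flags and median or lowess centring left both counts within 1.5 times and moved no list median beyond its error. Higher and lower features numbered 402 and 135 at 2-fold, 405 and 299 with both channels above background, 3981 and 3204 with no filter, 578 and 153 after normexp with outlying backgrounds at the array median, and 2528 and 5682 after plain normexp. There were 739 higher features with the sample well above background and 4682 with the sample channel alone. Of 69 called probes named, 66 kept their direction with the sample channel alone, 66 after normexp with outlying backgrounds replaced, and 27 after plain normexp, and 54, 45, and 18 of these stayed past 1.5-fold. With both channels above background, 38 of the 69 had a value.

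On the control medium array, 5 spots in the sample channel and 9 in the reference had local backgrounds above 1000, up to 72594 and 242153, against medians of 61 and 132, and 0 did on the Wnt3A array. With only these spots set to the array median, an alternative chosen after seeing the data, 265 features were higher and 126 lower, list medians were 0.24 for Wnt targets, -0.011 for Wnt receptors, 0.029 for destruction complex, and 0.14 for intestinal markers, 67 of the 69 called probes kept their direction, and KIF6 (0.072) and DDX50 (0.24) reversed. The 1st percentile of corrected sample signal on that array was 754 with plain normexp, 31.9 with these spots replaced, and 7.37 with all 558 outlying backgrounds replaced. With plain normexp, list medians were -0.13 for Wnt targets, 0.035 for Wnt ligands, -0.023 for Wnt receptors, -1.35 for secreted modulators, -0.35 for immediate early genes, -0.16 for Notch, -0.081 for FGF genes, -0.18 for cholesterol, 0.067 for stress response, -0.32 for hypoxia, -0.15 for cell division, -0.063 for ribosome biogenesis, -0.74 for interferon genes, -0.51 for blood cell markers, -1.54 for liver markers, -0.22 for muscle markers, and -1.05 for intestinal markers. Called probes reversed to SP5 (-2.32 and -2.73), CCND1 (-0.10, -0.36, and -0.67), DKK1 (-1.36), NKD1 (-0.44), TCF7 (-0.46), EPHB3 (-0.34), LMO2 (-0.37), IRAG2 (-1.81), ETV4 (-0.51), ETV5 (-0.99), GBP2 (-1.56), HKDC1 (-0.64), NOL4 (1.89), SERTM1 (0.80), CBARP (0.11), KIF6 (0.97), DDX50 (0.79), DYNC2H1 (1.35), PRKG1 (0.90), FGF7 (0.45), BMPR1B (0.97 and 0.88), WNT10A (-0.41), ROR2 (-0.045), MLLT10 (0.71), FOS (-0.80), DUSP6 (-2.02), NDRG1 (-0.27), MX2 (-1.03 and -2.39), IFI44L (-1.12), CD2 (-1.01), AHSG (-1.41), HP (-1.52), TFF3 (-1.79 and -1.26), EPCAM (-1.58), TNFRSF17 (-2.17), and PLBD1 (-2.06).

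With outlying backgrounds replaced, list medians were -0.050 for Wnt receptors, 0.014 for destruction complex, 0.25 for interferon genes, and 0.10 for muscle markers, and DDX50 (0.057), MLKL (0.23), and IFIT3 (0.14) reversed. With the sample channel alone, they were 0.46 for Wnt targets, 0.73 for Wnt ligands, 0.11 for Wnt receptors, 0.044 for destruction complex, -0.16 for TCF cofactors, 0.54 for immediate early genes, -0.13 for BMP and TGF-beta, 0.16 for FGF genes, 0.24 for hypoxia, 0.094 for cell division, 0.16 for ribosome biogenesis, 0.23 for HEK293T markers, 0.54 for blood cell markers, 0.28 for liver markers, and 0.63 for muscle markers, and SERTM1 (0.91), DDX50 (1.49), and FGF7 (0.67) reversed. With no filter, they were 0.33 for immediate early genes and -0.025 for FGF genes. The cause of these other differences was not tested.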
